A study of Mus musculus with 2 samples.

Results

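The 10 lipid-associated macrophage genes were *Trem2*, *Gpnmb*, *Cd9*, *Spp1*, *Fabp4*, *Fabp5*, *Lpl*, *Apoe*, *Lgals3* and *Plin2*. Each matched 1 row, by gene symbol, of the 31053 rows in the deposited count tables, so all 10 members were measured. They were chosen with measured values of these same libraries in view, and *Trem2*, *Gpnmb*, *Fabp4* and *Lpl* also stand on a marker list that the study drew from these libraries. The study also named a macrophage subset after *Cd9* and a fibroblast subset after *Gpnmb*. What follows is therefore a description of the members' levels. Single cells were sequenced from splinted excisional back-skin wounds on day 5 after injury. The study took the tissue with a 10 mm punch, wider than the wounds it made, so the cells may include those of surrounding skin. Both libraries are labelled *Mrc1-DTR*, a C57BL/6 line in which the *Mrc1* (CD206) promoter drives the diphtheria toxin receptor, and the mice were 7 to 9 weeks old. The PBS library came from mice labelled as given PBS and the DTX library from mice labelled as given diphtheria toxin. The study's methods describe the controls as wild-type mice given the toxin instead, and pooling of 3 mice per group, so the identity of the control rests on the labels. Its text also gives the cell numbers of the groups the other way round from the deposited libraries as labelled. Which of these is right could not be settled here, and an exchange of the labels would turn the sign of each ratio below. The study reports a larger share of immune cells and fewer fibroblasts in depleted than in control wounds. The libraries as labelled run the same way. Macrophage-like cells were 23.04% of kept cells in the PBS and 68.7% in the DTX library, and fibroblast-like cells 38.6% and 9.92%. There was 1 library per group, so no difference between the libraries could be tested, and every interval below is a 95% interval that covers counting error only.

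Lipid-associated macrophages are macrophages that accumulate around lipid-rich debris, and they have been described in obese fat, atherosclerotic plaques and injured tissue. TREM2 is a surface receptor that binds lipids and apolipoproteins and signals through the adaptor TYROBP. Downstream of it, such cells carry genes for lipoprotein hydrolysis (*Lpl*), fatty acid binding (*Fabp4*, *Fabp5*), lipid droplet coating (*Plin2*) and lipid export (*Apoe*), together with the secreted or surface proteins osteopontin (*Spp1*), galectin-3 (*Lgals3*), the tetraspanin *Cd9* and the lysosomal glycoprotein *Gpnmb*. None of the genes is restricted to macrophages.

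After filtering, 7944 cells with 81235634 UMIs remained in the PBS library and 6613 cells with 54872675 UMIs in the DTX library, and the median cell held 9580 and 7286 UMIs. Among the kept barcodes, 13 occurred in both libraries. Macrophage-like cells, in which 8 of 8 macrophage markers were raised, were 1830 cells (23.04%) of the PBS library and 4541 cells (68.7%) of the DTX library. They came from a pair of clusters. Cluster 0 held 1764 of the PBS cells and 2300 of the DTX cells, whereas cluster 2, led by *Chil3* and *Arg1*, held 66 and 2241. Cluster 0 was thus the larger in both libraries, by far in the PBS and narrowly in the DTX library. *Mrc1*, the gene whose promoter drives the receptor, stood at 487 CPM (the gene's UMIs scaled to 1000000 UMIs of the class) in PBS and 429 CPM in DTX macrophage-like cells, a log2 ratio of -0.18 (-0.23 to -0.13). Fibroblast-like cells numbered 3065 (38.6%) and 656 (9.92%).

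The sequences upstream of 3 members are shown because their levels followed different patterns below. In macrophage-like cells *Trem2* and *Gpnmb* were lower in the DTX than in the PBS library, and *Spp1* was higher. Each run is the 250 bases before the RefSeq transcription start in GRCm38.p6, written 5′ to 3′ on the strand of the gene. Capitals mark matches, on either strand, to TGANTCA (AP-1-like, with any base at its centre), CACGTG (the E-box core) or GAGGAAGT (a PU.1 core). *Trem2* (ENSMUSG00000023992) is a protein-coding gene on the + strand of chr17 and *Gpnmb* (ENSMUSG00000029816) and *Spp1* (ENSMUSG00000029304) are protein-coding genes on chr6 and chr5. The run shown for *Trem2* is chr17:48346151-48346400 (+ strand), that for *Gpnmb* chr6:49036268-49036517 (+) and that for *Spp1* chr5:104434861-104435110 (+).
Trem2: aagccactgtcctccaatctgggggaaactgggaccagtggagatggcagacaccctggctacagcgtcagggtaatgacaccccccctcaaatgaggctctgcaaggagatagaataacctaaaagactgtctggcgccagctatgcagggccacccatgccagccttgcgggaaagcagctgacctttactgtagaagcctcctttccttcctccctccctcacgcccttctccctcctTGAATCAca
Gpnmb: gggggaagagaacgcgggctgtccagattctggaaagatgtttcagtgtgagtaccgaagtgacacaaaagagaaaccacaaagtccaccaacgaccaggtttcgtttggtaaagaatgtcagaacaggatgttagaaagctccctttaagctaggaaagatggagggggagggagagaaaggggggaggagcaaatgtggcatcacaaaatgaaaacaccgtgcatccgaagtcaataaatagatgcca
Spp1: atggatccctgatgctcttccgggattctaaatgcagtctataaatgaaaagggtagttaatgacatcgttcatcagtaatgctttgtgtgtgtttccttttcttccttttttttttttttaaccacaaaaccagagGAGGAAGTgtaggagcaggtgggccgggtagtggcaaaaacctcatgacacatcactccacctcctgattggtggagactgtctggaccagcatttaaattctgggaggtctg
The AP-1-like letters, TGAATCA, began 9 bases before the *Trem2* start. Of the 32841 upstream runs of this length, 6.75% held the pattern with any central base. The PU.1 letters began 113 bases before the *Spp1* start and occurred in 2.44% of all runs. The E-box core, found in 6.02% of all runs, was in none of the 7 members with an entry, and neither was the longer TCACGTG, which contains it and was in 3.13%, nor the hypoxia response core ACGTG, which overlaps both and was in 16.6%. The direct repeat 1 element of nuclear receptors was in none of the 7 and in 0.0335% of all runs. These matches describe letters in a window and nothing about binding. *Lpl*, *Fabp4* and *Fabp5* had no entry.

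The members fell into different patterns across cell classes. *Trem2*, the receptor, was nearly confined to macrophage-like cells, which held 91.8% of its UMIs in the PBS library and 95.4% in the DTX library. *Plin2*, which coats lipid droplets, had 65.5% and 90.1% of its UMIs there. *Gpnmb* was different, with 89.8% of its UMIs in fibroblast-like cells of the PBS library and 61.3% in those of the DTX library. Such shares depend on class size as well as on level. Macrophage-like cells were 23.04% and 68.7% of kept cells and fibroblast-like cells 38.6% and 9.92%. The *Plin2* level in macrophage-like cells was 1126 and 1018 CPM, against 883 and 1197 CPM in neutrophil-like cells. By level *Plin2* was thus not particular to macrophage-like cells.

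*Fabp4*, a fatty acid carrier, was mainly a gene of vessels. It stood at 4458 CPM (4331 to 4587) and 4612 CPM (4461 to 4766) in endothelial-like cells of the PBS and DTX libraries, and at 2197 and 2328 CPM in pericyte-like cells. Macrophage-like cells had 65.8 CPM and 17.98 CPM. *Fabp5*, its relative on the same chromosome with 187480 bases between the genes, instead had 71.7% of its PBS UMIs in epithelial-like cells. *Apoe* UMIs in the PBS library were divided among epithelial-like (47.4%), macrophage-like (31.8%) and fibroblast-like (18.7%) cells.

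*Cd9* had a lower level in macrophage-like than in every other class of the PBS library: 192 CPM, against 289 CPM in NK- or T-like cells and 2249 CPM in the 33 mast-like cells. *Spp1* was high in neutrophil-like as well as macrophage-like cells. Neutrophil-like cells had 938 CPM (808 to 1082) in the PBS and 4153 CPM (4036 to 4272) in the DTX library, from 130 and 461 cells of low depth (medians of 1229 and 1922 UMIs). The 8 macrophage markers summed to 4360 and 3728 CPM in these cells, against 15451 and 11298 CPM in macrophage-like cells. The part of macrophage RNA in their *Spp1* level was not tested.

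**Figure D1:**
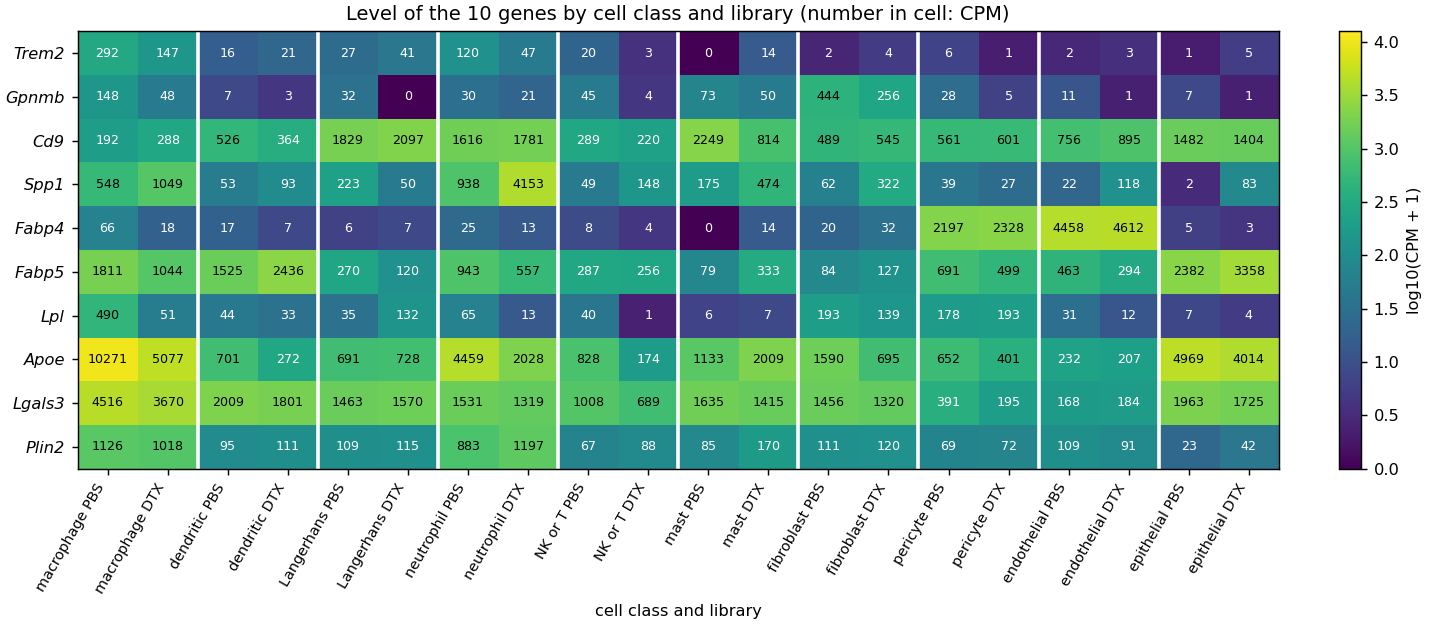
Level of the 10 genes (rows) in 10 cell classes of the PBS and DTX libraries (columns); colour is log10(CPM + 1) and the number in each cell is the CPM. *Trem2* is high in macrophage-like cells (292 and 147 CPM), *Fabp4* in endothelial-like and pericyte-like cells, and *Gpnmb* in fibroblast-like cells (444 and 256 CPM).

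The main comparison asked how the members differed between macrophage-like cells of the DTX and PBS libraries. Of the 10 members, 4 were lower in the DTX library by a log2 ratio of 1 or more (*Lpl*, *Fabp4*, *Gpnmb* and *Apoe*) and 0 were higher by as much. Among the 10259 genes with at least 50 UMIs in this class, 3.27% were lower and 1.55% higher by that size. Since the members were chosen on these libraries, nothing is read from that contrast. The median log2 ratio was -0.89 over the members and 0.06 over all genes tested.

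*Lpl*, the lipase that frees fatty acids from lipoproteins, stood at 490 CPM (476 to 504) in the PBS library and 51.0 CPM (48.5 to 53.5) in the DTX library. The log2 ratio was -3.24 (-3.35 to -3.18), the largest difference among the 10 members. With each cell thinned to 2000 UMIs, 33.1% (30.8% to 35.4%) of PBS and 5.84% (5.17% to 6.58%) of DTX macrophage-like cells had an *Lpl* UMI, against 46.2% and 12.05% unthinned. Among NK- or T-like cells, 4% and 1.32% had an *Lpl* UMI unthinned, from 65 and 2 UMIs. Their median depths were 6534 and 8059 UMIs, against 4832 and 6778 UMIs in macrophage-like cells. Whether this *Lpl* RNA was their own was not tested.

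*Fabp4* was 65.8 CPM in the PBS and 17.98 CPM in the DTX library, a log2 ratio of -1.82 (-2.04 to -1.71). *Gpnmb* was 148 CPM (140 to 156) and 47.6 CPM (45.2 to 50.02), a log2 ratio of -1.61 (-1.74 to -1.53). *Apoe*, the apolipoprotein that carries exported lipid, was 10271 and 5077 CPM, a log2 ratio of -1.02 (-1.028 to -1.005). All of these were lower in DTX cells, and *Trem2* lay just short of the threshold, at 292 CPM (281 to 303) and 147 CPM (143 to 151) with a log2 ratio of -0.99 (-1.06 to -0.93).

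*Spp1* and *Cd9* differed in the opposite direction. *Spp1*, a secreted integrin ligand, was 548 CPM in the PBS and 1049 CPM in the DTX library, a log2 ratio of 0.93 (0.89 to 0.98). *Cd9* was 192 and 288 CPM, a log2 ratio of 0.58 (0.51 to 0.66). The members thus differed in both directions. *Fabp5* was 1811 and 1044 CPM (-0.79), *Lgals3* 4516 and 3670 CPM (-0.30) and *Plin2* 1126 and 1018 CPM (-0.14), and the share of thinned cells with a *Plin2* UMI was 75.4% (73.2% to 77.5%) and 77.0% (75.7% to 78.2%), intervals that overlapped.

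**Figure D2:**
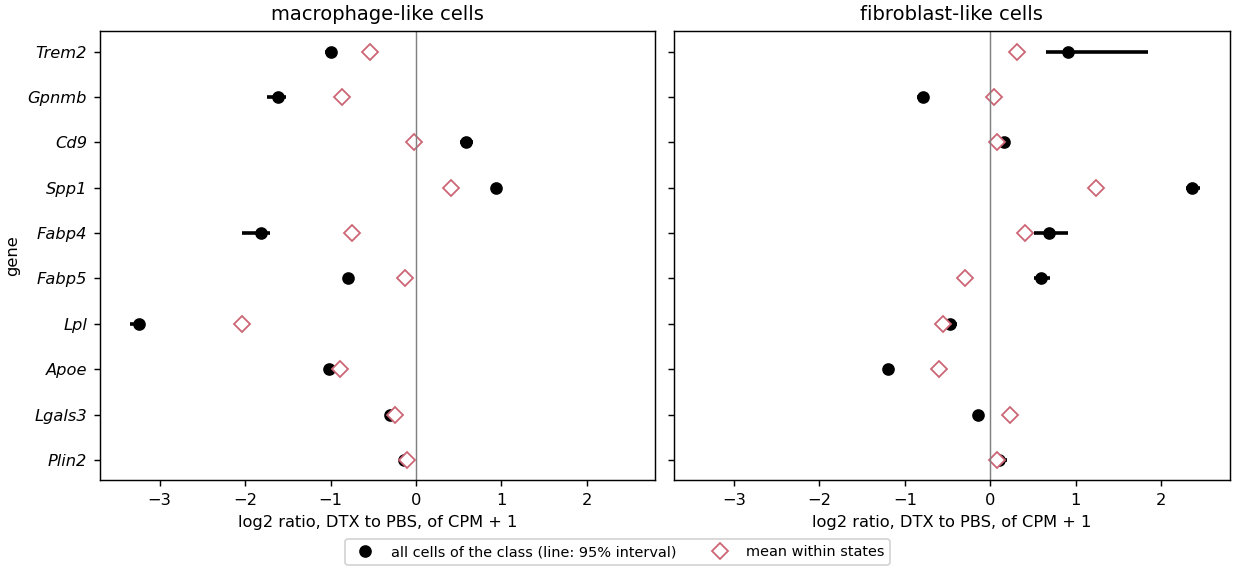
Log2 ratio of DTX to PBS (x axis, of CPM + 1) for each gene (y axis) in macrophage-like and fibroblast-like cells; filled points use all cells of the class, with 95% intervals for the ratio of UMI shares with nothing added, and open diamonds are means within states. *Lpl* lies at -3.24 over all macrophage-like cells and -2.03 within states, and *Gpnmb* in fibroblast-like cells at -0.79 and 0.04.

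RNA of other cell types also differed between the libraries inside this class. The 9 fibroblast markers, with 0 of 9 absent, summed to 747 CPM in PBS and 153 CPM in DTX macrophage-like cells, and the 10 epithelial markers, with 0 of 10 absent, to 558 and 174 CPM. Of 8 adipocyte markers 6 had no UMI in the PBS and 5 in the DTX library. *Adipoq*, *Plin1*, *Cfd*, *Lep* and *Acvr1c* had none in either library, and *Cidec* had 0 and 1. The adipocyte list summed to 1.30 and 1.07 CPM. In NK- or T-like cells the fibroblast list had a log2 ratio of -2.24 and *Apoe* one of -2.24 (828 to 174 CPM). *Lpl* had one of -4.08 (39.9 to 1.41 CPM, from 65 and 2 UMIs) and *Gpnmb* one of -3.36 (45.4 to 3.53 CPM). Of the 225 PBS cells of this class, 4% had an *Lpl* UMI, 4.89% a *Gpnmb* UMI and 44.9% an *Apoe* UMI. The *Lpl* and *Gpnmb* ratios there thus rest on few cells. In the 15 PBS and 539 DTX macrophage-like cells without a UMI of the fibroblast, epithelial, endothelial and adipocyte markers, a subset taken after the values were seen, the log2 ratio was -2.02 for *Lpl*, -1.95 for *Fabp4*, -0.33 for *Apoe*, -0.04 for *Gpnmb*, 0.71 for *Trem2*, 2.42 for *Spp1* and 3.31 for *Cd9*. That subset keeps cells by the same RNA that differs between the libraries and has few PBS cells, so it is no test, and the part of such RNA in the members' ratios was not tested. With the upper limit of 2000 genes per cell that the study's methods give, 2 members were lower by a log2 ratio of 1 or more (*Lpl*, -3.18, and *Fabp4*, -1.38) and 2 higher (*Spp1*, 1.48, and *Cd9*, 1.02).

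Macrophage-like cells were divided into 7 states, clustered with the members and lists left out. States 1 and 2 together held 2.30% (1.66% to 3.09%) of PBS and 55.4% (53.9% to 56.8%) of DTX macrophage-like cells. State 1 was *Vcan*-like, and state 2 was led by *Arg1*, *Cxcl3* and *Fn1*. States 0, 3 and 5 together held 80.6% and 30.3%. A state found almost wholly in 1 library cannot be told apart from a property of that library.

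State 3 was *Klf2*-like, with 4 of 6 markers of that list raised, and was led by *Ccl8*, *Hspa1a* and *Ctsk*. It had the highest level of *Trem2*, *Gpnmb*, *Fabp4*, *Fabp5*, *Lpl* and *Apoe* in the PBS library. It held 458 PBS and 425 DTX cells. In the DTX library it was highest for *Trem2*, *Fabp5* and *Apoe*. *Lpl* was higher in state 6 (332 against 179 CPM) and *Fabp4* in state 5 (69.3 against 24.0 CPM), and *Gpnmb* was about level in state 0 (74.7 against 73.0 CPM). The state 5 value rested on 26 UMIs in 174 cells of low depth (a median of 1940 UMIs). In state 3 *Trem2* was 653 CPM in the PBS and 326 CPM in the DTX library. *Gpnmb* was 420 and 73.0 CPM there, a log2 ratio of -2.51 (-2.73 to -2.32). *Lpl* was 1109 and 179 CPM, which gave -2.62 (-2.76 to -2.50) on the log2 scale. *Fabp4* was 170 and 24.0 CPM, a log2 ratio of -2.78 (-3.19 to -2.48). In PBS macrophage-like cells thinned to 2000 UMIs, *Gpnmb* was found in 20% of those with a *Trem2* UMI and 7.37% of the others, against 10.3% and 6.34% in the DTX library. *Lpl* was found in 49.2% and 25.3% of PBS cells and in 7.91% and 5.26% of DTX cells. Thinned cells of state 3 had both a *Trem2* and a *Gpnmb* UMI in 17.3% of the PBS and 4.84% of the DTX library.

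State 2 had the highest pooled level of *Spp1*, *Cd9* and *Lgals3*. *Spp1* was 2293 CPM (2259 to 2328) and *Cd9* 681 CPM (662 to 700) in its 1198 DTX cells. *Lpl* was 21.1 CPM there. The 9 PBS cells of state 2 had *Spp1* at 3586 CPM (3009 to 4242), *Cd9* at 1002 CPM (709 to 1376) and *Lpl* at 316 CPM (164 to 553). Among PBS states with at least 50 cells, *Spp1* was highest in state 3, at 928 CPM.

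Averaged over states the differences were smaller, though not in each state. In state 3 *Gpnmb* (-2.51), *Fabp4* (-2.78) and *Apoe* (-1.15) differed by more than over the whole class, and *Lpl* (-2.62) by less. Over the 5 states with at least 50 cells in each library, each weighing the same, the mean log2 ratio was -2.03 for *Lpl*, -0.90 for *Apoe*, -0.86 for *Gpnmb*, -0.75 for *Fabp4* and -0.54 for *Trem2*, so that 1 member of 10 passed a log2 ratio of -1 in place of 4. *Cd9* came to -0.03 and *Spp1* to 0.41, with *Spp1* above 0 in 3 of 5 states and below 0 in states 3 (-0.33) and 6 (-0.67), all 5 intervals clear of 0. *Lpl*, *Apoe*, *Trem2* and *Lgals3* were below 0 in 5 of 5 states, with the whole interval below 0 in 4, 5, 3 and 4 of them. *Gpnmb* was below 0 in 3 of 5, and in state 0 its 71.4 and 74.7 CPM gave a log2 ratio of 0.06 (-0.16 to 0.29). *Lpl* in state 6, led by *Mgl2* and *Ear2*, was 343 and 332 CPM, a log2 ratio of -0.05 (-0.30 to 0.20).

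**Figure D3:**
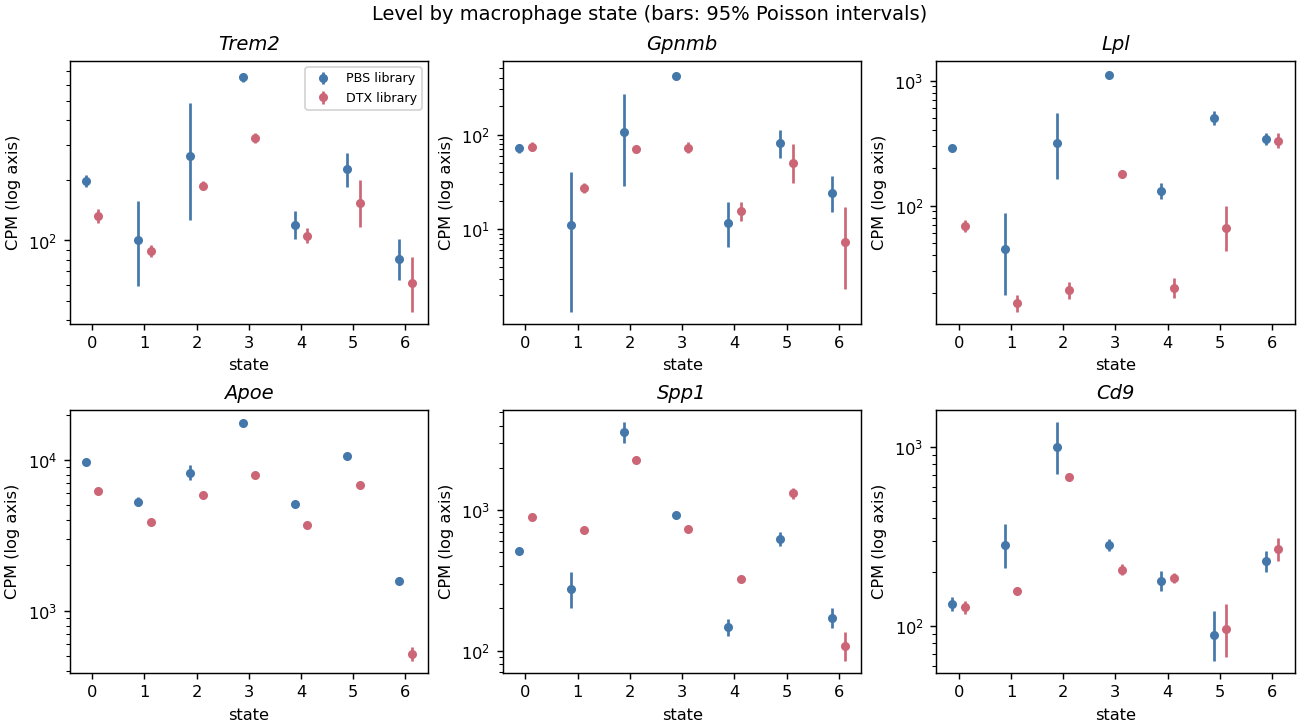
Level of 6 genes (CPM, log axis) in macrophage states 0 to 6 (x axis) of the PBS and DTX libraries, with 95% Poisson intervals. State 3 stands highest for *Lpl* in the PBS library (1109 CPM), and state 2 for *Spp1* and *Cd9* in both libraries, with only 9 PBS cells in state 2.

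Fibroblast-like cells were the main source of *Gpnmb*, whose level in them was 444 CPM (437 to 451) in the PBS and 256 CPM (246 to 266) in the DTX library. The log2 ratio was -0.79 (-0.86 to -0.73). States 0 and 2, where *Gpnmb* was highest, held 61.1% (59.4% to 62.9%) of PBS and 26.2% (22.9% to 29.8%) of DTX fibroblast-like cells. Inside state 0 it was 793 and 662 CPM, and inside state 2 it was 623 and 873 CPM. The mean log2 ratio within states 0 to 3 was 0.04, and *Gpnmb* was below 0 in 2 of 4 states and above 0 in 2. With at most 2000 genes per cell the log2 ratio over the class was -1.88.

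Of the 10 members in fibroblast-like cells, 1 was lower by a log2 ratio of 1 or more (*Apoe*) and 1 higher (*Spp1*). Over 11814 genes, 1.4% were lower and 2.66% higher by that size, and the median log2 ratio was 0.13 over the members and 0.12 over all genes. *Apoe* was 1590 CPM in the PBS and 695 CPM in the DTX library, with a log2 ratio of -1.19 (-1.23 to -1.16). Its mean within states 0 to 3 was -0.60, with the interval below 0 in 3 of 4 states. *Spp1* was 62.1 and 322 CPM, and its log2 ratio was 2.36 (2.29 to 2.45). Within states 0 to 3 its mean was 1.24, above 0 in 4 of 4 states, with the interval clear of 0 in 3 (states 1, 2 and 3). Each state weighed the same in that mean, but *Spp1* had only 45 and 10 UMIs in state 0 and 29 and 10 in state 2. In the *Plac8*-like state 1 *Spp1* was 133 and 418 CPM. That state held 1686 of the 2175 PBS and 2174 of the 3129 DTX *Spp1* UMIs of the class. A *Spp1* UMI was found, unthinned, in 13.25% and 21.96% of its cells, so the higher level came mainly from a minority of cells in 1 state. Neither direction was particular to this class. The *Spp1* ratio was above 0 in every other class except Langerhans-like (-2.13) and pericyte-like cells (-0.50). It reached 4.76 in epithelial-like cells, from low levels of 2.11 and 82.9 CPM (60 and 322 UMIs). *Tyrobp* was 12.7 and 81.6 CPM in the same cells, and the part of macrophage RNA in their *Spp1* ratio was not tested. The *Apoe* ratio was below 0 in every other class except Langerhans-like (0.07) and mast-like cells (0.83).

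Over the whole class, macrophage RNA differed too. The 8 macrophage markers, 0 of 8 absent, summed to 102 CPM in PBS and 343 CPM in DTX fibroblast-like cells. State 5, led by macrophage genes such as *Lyz2* and *Cd74*, held 0.653% and 6.40% of the class. In states 0 to 3 the macrophage markers stood between 58.3 and 66.9 CPM in the PBS and between 55.1 and 80.5 CPM in the DTX library, and in state 1, where *Spp1* was 133 and 418 CPM, they stood at 59.5 and 57.1 CPM. State 4 was led by keratinocyte genes, but its epithelial markers summed to 7455 CPM in 43 PBS cells and 151 CPM in 24 DTX cells, and *Spp1* was 112 and 2707 CPM there. Without states 4 and 5 the log2 ratio was 2.27 for *Spp1*, -1.46 for *Apoe*, -0.71 for *Gpnmb*, 0.15 for *Trem2* and -0.33 for *Plin2*, the last against 0.10 with them. The part of macrophage RNA in these ratios was not tested.

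**Figure D4:**
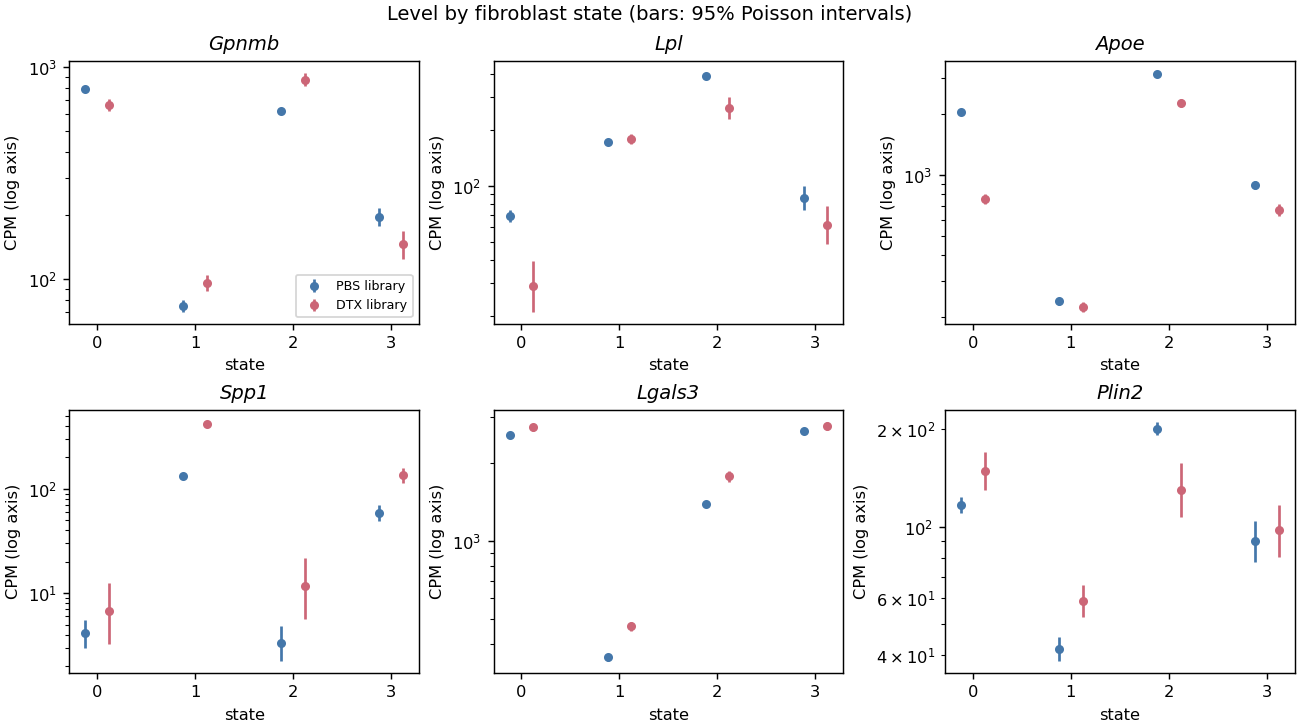
Level of 6 genes (CPM, log axis) in fibroblast states 0 to 3 (x axis) of the PBS and DTX libraries, with 95% Poisson intervals. *Gpnmb* is high in states 0 and 2 of both libraries (623 to 873 CPM), and *Spp1* is highest in state 1 (133 and 418 CPM).

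Other genes of the programme were described from 7 lists. Macrophage-like cells had 50 UMIs or more of 104 listed genes. Of these, 15 were lower in the DTX library by a log2 ratio of 1 or more and 9 higher. Over all 10259 genes with as many UMIs, 3.27% were lower and 1.55% higher by that size. The median was -0.04 over the listed genes and 0.06 over all genes. In cluster 0 alone, a subset taken after the values were seen, 5 were lower in place of 15. *Clec7a* was not analysed here. The list of lipid-associated macrophage and disease-associated microglia genes had 9 of 24 lower, 0 higher and a median of -0.80. Most of its lower genes, *Igf1*, *Mmp12* and *Cd72* among them, also stand on the study's *C1qa* macrophage marker list, drawn from these libraries. So do *Ms4a7*, *Pltp*, *Pparg* and *Itga9*, named below, while *Trem1*, *Trem3* and *Dgat2* stand on its *Vcan* list. Nothing is therefore read from the counts of these lists. In it *Igf1*, a growth factor, went from 141 to 18.3 CPM (-2.89), *Mmp12*, a macrophage elastase, from 127 to 18.04 CPM (-2.75), and *Cd72* from 207 to 65.5 CPM (-1.65). *Lilrb4a* (0.64), *Ctsl* (0.52) and *Capg* (0.11) were at the other end.

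The list of TREM2 signalling and shedding genes held values in both directions, with 6 of 14 below 0. The adaptor *Tyrobp* was 2375 CPM in the PBS and 2733 CPM in the DTX library, a log2 ratio of 0.20 (0.18 to 0.22). In that list 1 of 14 genes was lower (*Ms4a7*, -1.13) and 2 were higher, the receptors *Trem1* (40.9 and 134 CPM, 1.68) and *Trem3* (5.74 and 21.5 CPM, 1.74). The median was 0.26.

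Lipid uptake genes were mixed, with 3 of 11 higher: the scavenger receptors *Msr1* (1.23) and *Olr1* (1.21), and *Slc27a4* (1.56), a fatty acid transporter. *Cd5l* was lower (15.5 and 1.39 CPM, -2.79) and is named after its value was seen. In the cholesterol efflux and lipid transfer list, not all of whose genes act in export or transfer themselves, 2 of 11 were lower and 0 were higher. The 2 were *Pltp* (845 and 334 CPM, -1.34) and *Mylip* (-1.02). In the lipid droplet list *Dgat2* (11.8 and 38.1 CPM, 1.61) and *Gpat3* (15.3 and 47.1 CPM, 1.56) were the 2 of 13 that were higher and 0 were lower. Both are triglyceride synthesis enzymes, as is *Dgat1*, which was 161 and 122 CPM (-0.40).

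Of 10 measured fatty acid binding and PPAR genes, *Pparg*, the nuclear receptor that controls *Fabp4* and *Lpl* in fat, was lower (14.4 and 5.15 CPM, -1.32). *Fabp7* was higher from 4 and 89 UMIs (1.41) and is likewise named after its value was seen. Among 21 partners and relatives of the CD9, osteopontin, galectin-3 and GPNMB proteins, *Itga9*, an osteopontin receptor chain, was lower (-1.16) and *Ptgfrn*, a CD9 partner, was higher (1.34). *Cd44*, another osteopontin receptor, was 993 and 1660 CPM (0.74).

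**Figure D5:**
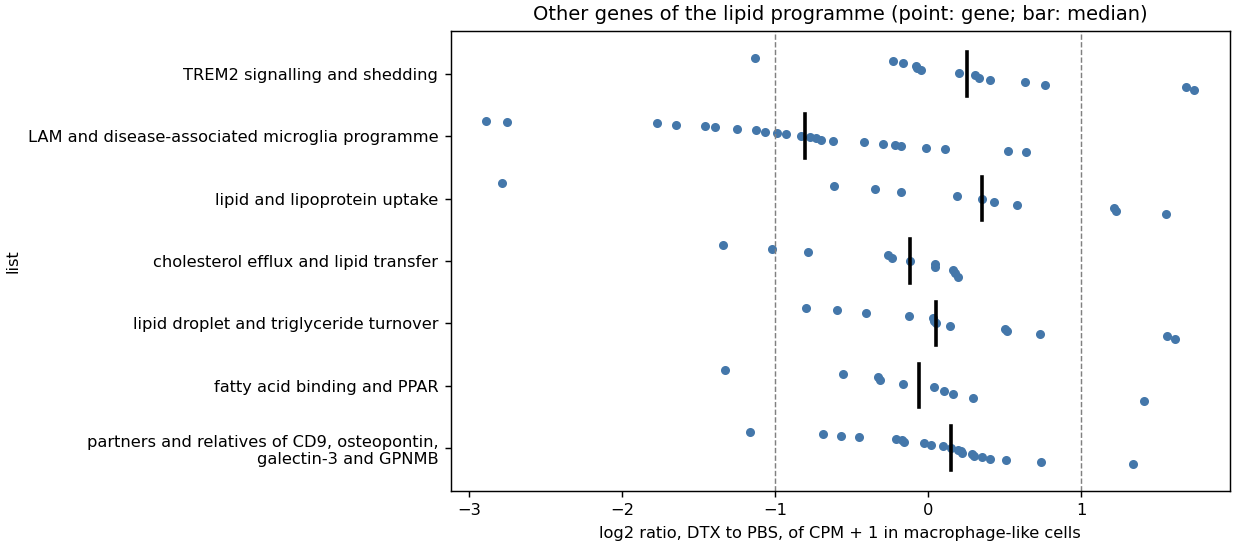
Log2 ratio of DTX to PBS in macrophage-like cells (x axis, of CPM + 1) for the measured genes of 7 lists (y axis); points are genes, black bars list medians and dashed lines ratios of -1 and 1. The lipid-associated macrophage and disease-associated microglia list has its median at -0.80.

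Across the 17 class and library groups of at least 50 cells, the genes whose log2(CPM + 1) was most like that of *Trem2* among 12101 genes were *Ms4a7* (Pearson r = 0.99), *C1qc* (0.98) and *C1qb* (0.97). *Gpnmb* was most like *Lpar1* (0.91), *C3* (0.86) and *C4b* (0.83), and *Fabp4* most like *Esam* (0.96), *Adgrf5* (0.95) and *Tspan12* (0.95). For *Lpl* the nearest was *Cd302* (0.88), for *Spp1* it was *Ccr1* (0.89), for *Plin2* *Flcn* (0.94) and for *Apoe* *Cstb* (0.92). *Lgals3* was most like *Dtx2* (0.91), *Fabp5* most like *Blnk* (0.85) and *Cd9* most like *Pex11a* (0.79). Among the members themselves r ranged from 0.87 between *Spp1* and *Plin2* to -0.79 between *Fabp4* and *Lgals3*. The groups share libraries and depth, so these are descriptions only.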

How the data were processed

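Live cells sorted from day 5 wounds were profiled in 2 droplet libraries, 1 per group. The deposited values are raw UMI counts, 1 matrix a library, which the labels credit to Cell Ranger 6.1.1 and mm10. Groups came from the labels. A cell was kept if it had 500 or more genes and its mitochondrial share did not exceed 6%. Scrublet (scanpy 1.11.5) doublets were removed: 382 in the PBS library by its own threshold and, because that threshold called 0 in the DTX library, the top 8% of scores there (575 cells). Cells were clustered with Seurat 5.3.0 at a resolution of 0.2 for classes and fibroblast states and 0.5 for macrophage states, with 134, 200 and 1086 genes (members and lists included) left out of the variable genes, and named "-like" from marker lists. Levels are CPM of summed UMIs with exact Poisson intervals. Log2 ratios are of CPM plus 1, and their intervals are exact conditional binomial intervals of the UMI shares with nothing added. Shares of cells have Clopper-Pearson intervals after thinning to 2000 UMIs, with shallower cells left out (225 PBS and 142 DTX macrophage-like cells). Intervals cover counting error only. The ratio was checked on simulated data.

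The members and all gene lists were chosen with earlier results of these data known. By rule, named genes were the 10 members, per list up to 3 genes at each end of the log2 ratios among those with at least 200 UMIs, and up to 3 genes most like each member. *Mrc1* and *Tyrobp* were added as the targeted gene and the TREM2 adaptor. The alternatives were other filters, doublet handling, added values, scalings, clusterings and thinning depths.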

Additional observations from a re-analysis of the deposited data

Results flagged for a closer look

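In 4 members the DTX to PBS log2 ratio had opposite signs in macrophage-like and fibroblast-like cells, with both counting intervals clear of 0. With 1 library per group the difference itself was not tested. Macrophage-like minus fibroblast-like, it was -2.5 for *Fabp4* (-1.82 and 0.69), -1.9 for *Trem2* (-0.99 and 0.91), -1.39 for *Fabp5* (-0.79 and 0.60) and -0.25 for *Plin2* (-0.14 and 0.10). Without the fibroblast states led by keratinocyte and macrophage genes, the fibroblast-like values were 0.83, 0.15, 0.45 and -0.33 in the same order, so the opposite sign of *Plin2* was lost. *Trem2* in fibroblast-like cells rested on 62 and 41 UMIs, of which 36 and 32 lay in the state led by macrophage genes, and its interval was clear of 0 in 0 of the 4 other states compared. *Fabp5* was below 0 in 3 of those 4 states, with a mean of -0.30, so its opposite sign was not seen within most states.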

How the results depend on the processing

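The count of members lower by a log2 ratio of 1 or more in macrophage-like cells, 4, became 2 with at most 2000 genes per cell (where a monocyte-like cluster was merged into the class), 1 as the mean within states and 2 in cells with no UMI of other cell types' markers. It was 3 without removal of doublets, with each cell weighing the same and in cluster 0 alone. It was 5 with all variable genes used for clustering, with median-of-ratios scaling and without macrophage state 5. The *Apoe* ratio, -1.02 over the class, ranged from -1.11 to -0.33 over the 12 alternatives. The count of members higher, 0, became 2, 1 and 3 with at most 2000 genes, without removal of doublets and in those marker-free cells, and 1 with each cell weighing the same. Pathway genes that were lower, 15, ranged from 5 to 17 and were 5 in cluster 0 alone. *Gpnmb* in fibroblast-like cells, -0.79, was -1.88 with at most 2000 genes, -0.92 with median-of-ratios scaling, -0.72 with each cell weighing the same, -0.71 without states 4 and 5, and reversed to 0.039 as the mean within states 0 to 3. In macrophage-like cells *Plin2* reversed to 0.16 with at most 2000 genes, and *Cd9* to -0.026 within states and -0.011 in cluster 0 alone. The marker-free cells were only 15 PBS and 539 DTX cells, and there *Trem2* (0.71), *Fabp5* (1.03), *Lgals3* (0.36) and *Plin2* (0.50) reversed. In fibroblast-like cells *Plin2* reversed to -0.33 without states 4 and 5. The cause of these changes was not tested. *Lpl* in macrophage-like cells stayed between -3.38 and -2.02 in 12 of 12 alternatives. At 1000 UMIs per cell, 9 of 10 members kept the direction of the difference in shares. The subsets that leave out states, keep cluster 0 or keep marker-free cells, and the mean within fibroblast states, were chosen after seeing the data. No paired analysis was possible because each group had 1 library.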
